A study of Mus musculus with 12 samples.

Results

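The 5 genes described here are Hba-a1, Hba-a2, Hbb-bs and Hbb-bt, which encode the adult alpha and beta chains of hemoglobin, and Alas2, which encodes the erythroid form of aminolevulinate synthase. They were taken by symbol from a table of 19268 genes, and all 5 had a row. RNA had been sequenced from the forebrain without the olfactory bulb in C57BL/6J males of 2 ages, juveniles of postnatal day 25 (P25) and adults of postnatal day 60 (P60). The mice were either wild-type (WT) or knock-out (KO), which means homozygous for a germline deletion of internal exons of Shank3, a scaffold protein of excitatory synapses. Each genotype at each age gave 3 libraries, 1 per mouse (named P25-KO1 to P60-WT3 here), 12 in 4 groups, and all KO mice were of 1 mutant line. No group received a treatment. Whether blood was washed out of the brains before dissection and whether the ages were dissected and sequenced together are not given in the sources used here, so age and any difference in handling between the ages cannot be told apart.

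Hemoglobin carries oxygen in red blood cells and is built from alpha and beta chains that each hold a heme group. Globin mRNA is made by erythroid precursors in the marrow, is carried into the circulation by young red cells called reticulocytes and is lost as these mature, and Alas2 catalyses the first step of heme synthesis in the same precursors. Hemoglobin transcripts in brain tissue can come from blood left in the vessels, and low expression in neurons and glia is also known. Bulk RNA does not show which cells held the transcripts, and fewer cells of a type and less RNA per cell cannot be told apart.

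The alpha genes lie in tandem on chromosome 11 and the beta genes on chromosome 7 (GENCODE M21, assembly GRCm38). Hba-a1 (ENSMUSG00000069919) spans chr11:32283511-32284465 and Hba-a2 (ENSMUSG00000069917) spans chr11:32296489-32297298, both on the plus strand. Hbb-bs (ENSMUSG00000052305) spans chr7:103826534-103828096 and Hbb-bt (ENSMUSG00000073940) spans chr7:103812524-103813996, both on the minus strand. Alas2 (ENSMUSG00000025270) spans chrX:150547375-150570638 on the plus strand. The longest transcripts of the alpha genes were identical at 99.81% of 538 aligned bases, and those of the beta genes at 93.12% of 625. Of the 31-base words in the transcripts of Hba-a2, 92.6% also occurred in another gene, against 75.5% for Hba-a1, 59.4% for Hbb-bt, 54.4% for Hbb-bs and 0% for Alas2. How reads were divided between the copies is therefore uncertain, and sums over the alpha genes, the beta genes and all 4 hemoglobin genes are given beside the single genes.

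As background, the 250 bases before the RefSeq start of 4 of the 5 genes (GRCm38.p6, 5′ to 3′ on the gene's strand) are shown. These are chr11:32296242-32296491 for Hba-a2, chr7:103827929-103828178 for Hbb-bs, chr7:103813924-103814173 for Hbb-bt and chrX:150547167-150547416 for Alas2. Capitals mark copies, on either strand, of GATAAG (letters bound by GATA factors), of CACCC (bound by Klf factors), of CCAAT (bound by nuclear factor Y) and of ATATAA (a form of the core promoter element bound by the basal machinery). In each window a few bases or more reach into the longer GENCODE model of the gene.
Hba-a2: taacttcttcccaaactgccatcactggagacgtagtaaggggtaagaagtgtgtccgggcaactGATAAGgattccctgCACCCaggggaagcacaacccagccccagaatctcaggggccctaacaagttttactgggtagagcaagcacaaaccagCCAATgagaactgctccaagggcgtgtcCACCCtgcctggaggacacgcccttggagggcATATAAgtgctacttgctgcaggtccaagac
Hbb-bs: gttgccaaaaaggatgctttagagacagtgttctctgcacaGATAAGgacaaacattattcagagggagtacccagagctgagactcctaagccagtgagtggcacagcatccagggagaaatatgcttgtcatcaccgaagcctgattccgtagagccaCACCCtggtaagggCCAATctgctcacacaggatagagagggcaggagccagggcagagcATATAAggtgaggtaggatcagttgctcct
Hbb-bt: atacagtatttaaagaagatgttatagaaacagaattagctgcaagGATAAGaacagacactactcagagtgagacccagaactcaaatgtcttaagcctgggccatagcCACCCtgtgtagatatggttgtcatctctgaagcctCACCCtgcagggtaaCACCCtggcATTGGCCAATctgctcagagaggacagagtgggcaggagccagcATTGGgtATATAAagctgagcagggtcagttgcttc
Alas2: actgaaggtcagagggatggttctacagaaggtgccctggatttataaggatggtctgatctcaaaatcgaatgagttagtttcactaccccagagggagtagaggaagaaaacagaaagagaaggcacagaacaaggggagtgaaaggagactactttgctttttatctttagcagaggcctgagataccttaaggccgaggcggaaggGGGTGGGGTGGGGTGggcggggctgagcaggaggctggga
The Hba-a1 window (chr11:32283422-32283671) was identical to that of Hba-a2 over 247 aligned bases and is not repeated. All 4 hemoglobin windows held every one of these motifs with GATAAG farthest from the start and ATATAA nearest, and there were further CACCC copies and 2 CCAAT copies on the opposite strand in Hbb-bt, one of which adjoined the copy on the gene's strand. The core element began 28 to 31 bases before the start and GATAAG 182 to 209 bases before it. Among 32851 RefSeq windows of the same length, 6.55% held GATAAG, 52.0% CACCC, 33.9% CCAAT and 9.10% ATATAA, and 46 windows (0.140%) held all of them. The Alas2 window held CACCC 3 times on the opposite strand and no copy of the other motifs. These are matches of letters and do not show binding, and their part in the difference between the ages was not tested.

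The deposited values are normalized counts, which the authors had derived from transcript estimates, so the read depth behind them is unknown. They summed to between 30568259 and 32348554 per library. Shank3, the targeted gene, was lower in KO at P25 (log2 fold change -1.06 ± 0.09 SE, limma adjusted p = 0.0134) and at P60 (-0.99 ± 0.07 SE, adjusted p = 0.00220), as the labels say. With an adjusted p under 0.05 as the call, 1 gene differed between KO and WT at P25 and 1 at P60, and 6616 of 17594 genes differed between the ages over both genotypes. Of the latter 3219 were higher and 3397 lower at P60, a split that became 4038 and 2730 when every library was scaled to the same total. Neuronal markers such as Snap25 (53900 to 69989 normalized counts) and Slc17a7 (29802 to 39257) were high in every library.

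All 5 genes were lower at P60 than at P25, by 2.96-fold for Alas2 and by 3.88- to 4.64-fold for the hemoglobin genes. Hba-a1, an adult alpha chain, had 5507, 6513 and 10591 normalized counts in P25-KO and 5152, 9332 and 5636 in P25-WT. It had 1487, 1513 and 1606 in P60-KO and 1413, 1372 and 1463 in P60-WT. Every P60 library thus lay below every P25 library. The log2 fold change of Hba-a1 over both genotypes was -2.21 ± 0.15 (SE, limma adjusted p = 1.44e-07).

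Hba-a2, the other adult alpha gene, had 6811, 8060 and 13048 normalized counts in P25-KO and 6216, 10883 and 6996 in P25-WT. At P60 it had 2069, 2398 and 2186 in KO and 1889, 1907 and 2166 in WT. The ages did not overlap, and KO and WT libraries overlapped at both ages. The log2 fold change between the ages was -1.99 ± 0.15 (SE, limma adjusted p = 3.11e-07).

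Hbb-bs, an adult beta gene, had the most counts. Its values were 7465, 8872 and 16412 in P25-KO and 7673, 15504 and 7894 in P25-WT, then 2436, 2733 and 2417 in P60-KO and 2300, 2202 and 2279 in P60-WT. The highest P60 library stood at less than the lowest P25 library, and the log2 fold change was -2.07 ± 0.18 (SE, limma adjusted p = 1.99e-06). Hbb-bt, the other adult beta gene, had 1216, 1605 and 2541 in P25-KO and 1238, 2236 and 1201 in P25-WT. It had 437, 539 and 508 in P60-KO and 310, 318 and 407 in P60-WT. The ages were again apart, with a log2 fold change of -1.96 ± 0.18 (SE, limma adjusted p = 2.81e-06).

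Alas2 was far lower than the globins, with 216, 254 and 390 normalized counts in P25-KO and 225, 284 and 215 in P25-WT. It had 74.5, 122 and 87.2 in P60-KO and 56.9, 95.8 and 95.9 in P60-WT. Its ages did not overlap either, and its log2 fold change was -1.57 ± 0.17 (SE, limma adjusted p = 1.59e-05). Between P25 and P60 the non-overlap seen for 5 of 5 genes held for 10.8% of the 17594 genes tested, and a call as lower for 19.3%. Among all log2 fold changes ordered from the lowest, Hba-a1 was at place 22, Hbb-bs at 29, Hba-a2 at 35, Hbb-bt at 37 and Alas2 at 63, while the median of all genes was 0.0037.

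**Figure D1:**
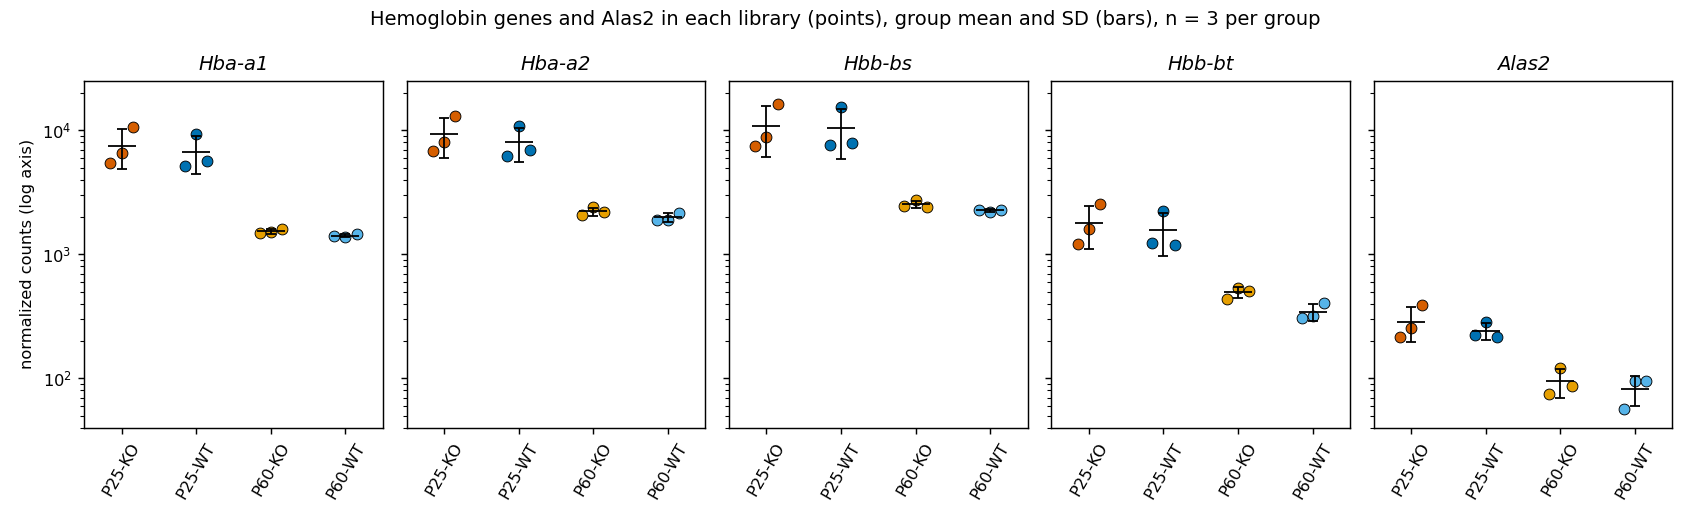
Normalized counts (log axis, shared by the panels) of Hba-a1, Hba-a2, Hbb-bs, Hbb-bt and Alas2 in each of 12 libraries, with points for libraries and bars for the group mean and SD (n = 3). In every panel the 6 P60 libraries lie below the 6 P25 libraries, and P25-KO3 and P25-WT2 are the highest libraries of their groups.

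**Figure D2:**
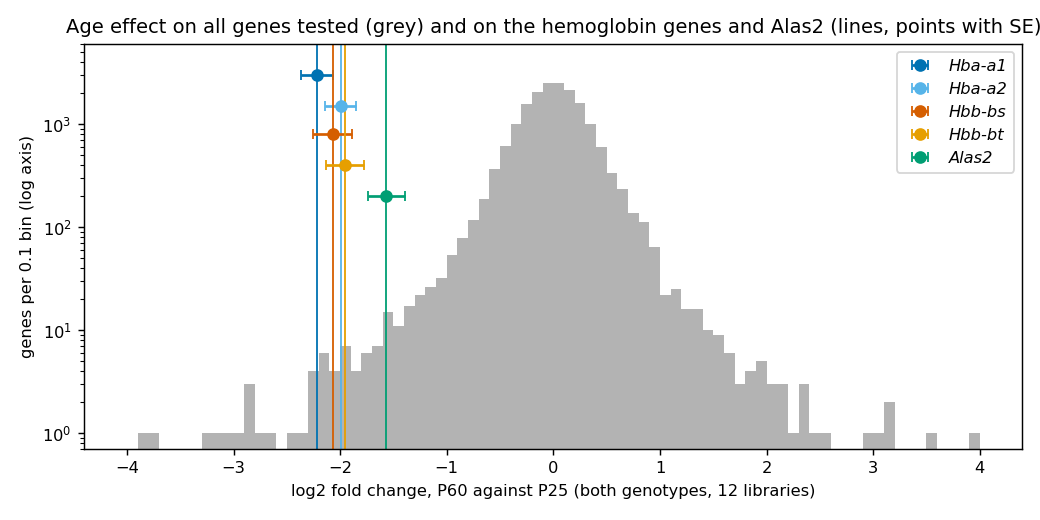
Number of genes (log axis) in bins of 0.1 of the log2 fold change between P60 and P25 over both genotypes, for the 17594 genes tested, with vertical lines at the hemoglobin genes and Alas2 and points with their SE. The 5 lines lie between -2.21 and -1.57, in the lower tail.

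The fall was present in each genotype taken alone. In WT the log2 fold changes were -2.19 for Hba-a1, -1.97 for Hba-a2, -2.11 for Hbb-bs, -2.12 for Hbb-bt and -1.56 for Alas2, with SE of 0.18 to 0.23 and limma adjusted p from 0.000562 to 0.00809. All 5 were called lower, as were 4.99% of all genes tested in WT. In KO they were -2.24, -2.01, -2.03, -1.79 and -1.57 in the same order, with SE of 0.18 to 0.23 and adjusted p from 9.76e-05 to 0.00225. All 5 were called lower here too, as were 11.3% of all genes. For the genotype by age interaction limma called 0 of the 5 genes, 0 of them had an unadjusted p under 0.05, and 0% of all genes were called. The 95% intervals of the interaction reached from -0.788 to 1.103 on the log2 scale over the 5 genes, and for Hbb-bt allow a difference between the genotypes' age effects of up to 2.15-fold.

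The 4 hemoglobin genes together summed to 20999, 25050 and 42593 normalized counts in P25-KO and to 20279, 37956 and 21728 in P25-WT. At P60 the sums were 6430, 7183 and 6717 in KO and 5911, 5798 and 6314 in WT. The mean over the 6 P25 libraries was 4.40 times that over the 6 P60 libraries, and the lowest P25 library held 2.82 times the highest P60 library. Hemoglobin made up 0.0635% to 0.134% of all normalized counts at P25 and 0.0190% to 0.0234% at P60. Per kilobase of the longest transcript, Hbb-bs ranked between 30 and 83 among 19252 genes in the P25 libraries and between 277 and 358 in the P60 libraries. By the same measure Alas2 ranked between 8004 and 10220 at P25 and between 11769 and 13632 at P60.

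The spread between libraries also differed by age. The coefficient of variation of the 4 hemoglobin genes within a group was 31.1% to 44.1% at P25 and 2.28% to 15.7% at P60. Much of the P25 spread came from one library in each genotype, P25-KO3 and P25-WT2. P25-KO3 was 1.75 to 2.01 times the mean of the other libraries of its group for the hemoglobin genes and 1.66 times for Alas2. P25-WT2 was 1.65 to 1.99 times for the hemoglobin genes and 1.29 times for Alas2. The same libraries had the highest mean log2 deviation of 76 genes for cytosolic ribosomal proteins, a list added after the data had been seen, at 0.23 in P25-KO3 and 0.58 in P25-WT2, against -0.15 to 0.03 in the other P25 libraries. The part of RNA quality or library composition in these hemoglobin levels was not tested. With both libraries left out, the remaining P25 mean was still 3.86 times the P60 mean for Hba-a1, 3.34 times for Hba-a2, 3.33 times for Hbb-bs, 3.13 times for Hbb-bt and 2.56 times for Alas2, and the ages still did not overlap. All 5 genes were still called lower by limma without them.

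The comparison of KO with WT at each age asked whether loss of Shank3 exons changed the hemoglobin level. At P25 the log2 fold changes were 0.16 for Hba-a1, 0.20 for Hba-a2, 0.07 for Hbb-bs, 0.19 for Hbb-bt and 0.21 for Alas2, with SE of 0.22 to 0.33. limma called 0 of 5 (adjusted p = 0.99996 for each), 0 had an unadjusted p under 0.05, and 0.00571% of all genes were called. The 95% intervals reached from -0.67 to 0.86, so these libraries allow a KO level of Hbb-bt up to 1.81 times that of WT. All 5 log2 fold changes became negative without P25-KO3, at -0.27 to -0.03, and were 0.34 to 0.48 without P25-WT2, so their signs rested on single libraries.

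At P60 the libraries lay closer together and all 5 log2 fold changes were again above 0. They were 0.12 ± 0.06 for Hba-a1, 0.16 ± 0.08 for Hba-a2, 0.16 ± 0.06 for Hbb-bs, 0.53 ± 0.13 for Hbb-bt and 0.20 ± 0.25 for Alas2 (SE). limma called 0 of 5 (adjusted p = 0.9995 for each), against 0.00568% of all genes. Hbb-bs (unadjusted p = 0.0282) and Hbb-bt (unadjusted p = 0.00238) were the 2 with an unadjusted p under 0.05, a level that 440 of 17610 genes reached. Hbb-bt was 1.44-fold higher in KO with a 95% interval of 1.18 to 1.76, the largest difference of the 5. The 3 KO libraries lay above the 3 WT libraries for Hba-a1, Hbb-bs and Hbb-bt, a pattern found in 4.16% of all genes, and the groups overlapped for Hba-a2 and Alas2. Summed over the 4 hemoglobin genes, the KO mean was 1.11 times the WT mean at P25 and 1.13 times at P60. For all 5 genes the group means thus stood, from high to low, in the order P25-KO, P25-WT, P60-KO and last P60-WT, but the order of KO and WT at P25 turned for all 5 without P25-KO3, and that at P60 for Alas2 without P60-WT1. The neighbours of the same age in that order did not pass the test, while P25-WT and P60-KO did not overlap for any of the 5.

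**Figure D3:**
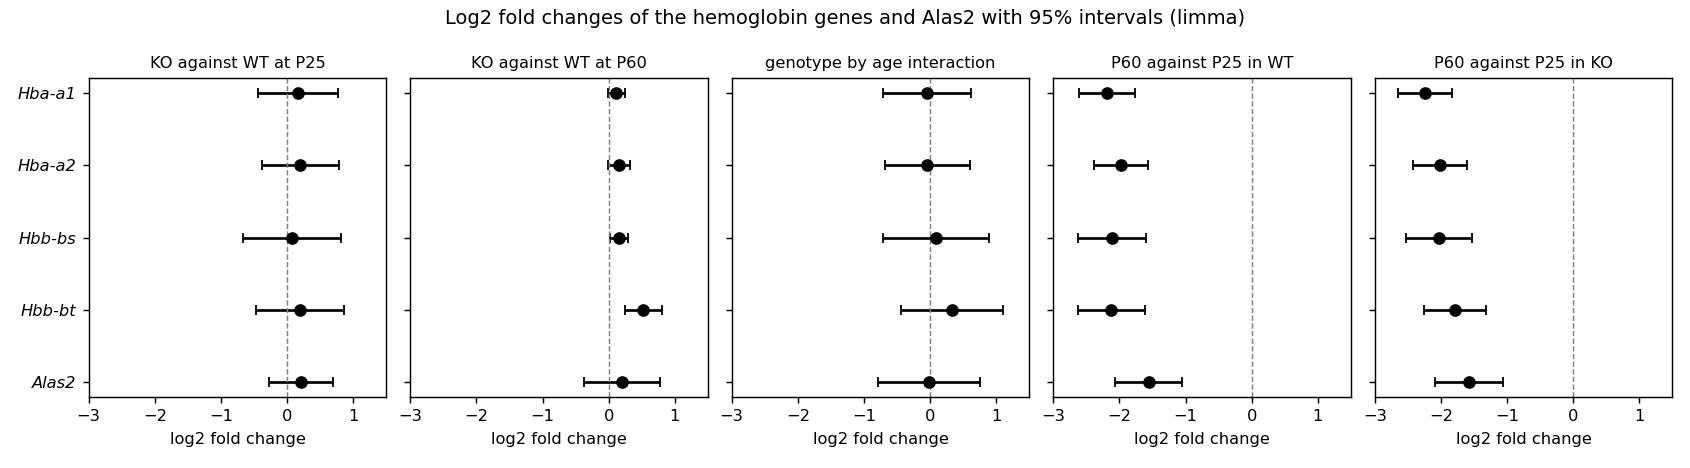
Log2 fold changes (x axis) with 95% intervals for Hba-a1, Hba-a2, Hbb-bs, Hbb-bt and Alas2 (rows), for KO against WT at P25 and P60, the genotype by age interaction, and P60 against P25 in WT and in KO. The intervals of the age comparisons lie between -2.65 and -1.05, and those of KO against WT at P25 and of the interaction all include 0.

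The ratio of alpha to beta chains overlapped between the ages, while the Hba-a1 share of the alpha level did not. Per kilobase, the alpha genes together were at 1.37 ± 0.12 times the beta genes at P25 (SD, n = 6) and at 1.34 ± 0.06 times at P60 (SD, n = 6), and the range over all libraries was 1.18 to 1.48. The lowest ratios at P25 were those of P25-WT2 (1.18) and P25-KO3 (1.301), the libraries with the most hemoglobin. Hba-a1 made up 39.0% to 40.5% of the alpha level per kilobase at P25 and 33.3% to 37.2% at P60, ranges that did not overlap. Since nearly all of Hba-a2 is shared with Hba-a1 as sequence, this share depends on how the estimates divided common reads.

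Hbb-bt made up 12.9% ± 0.9 of the beta level per kilobase in P25-KO, 12.0% ± 0.6 in P25-WT, 14.9% ± 1.0 in P60-KO and 12.0% ± 1.6 in P60-WT (SD, n = 3). In P60-KO its share was 13.82% to 15.8% and in P60-WT 10.7% to 13.75%, so these groups were barely apart. Alas2 stood at 7.49 to 11.1 normalized counts per 1000 of hemoglobin at P25 and at 9.62 to 17.0 at P60. These ranges overlapped. The ratios lie within a library and are not changed by scaling it.

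**Figure D4:**
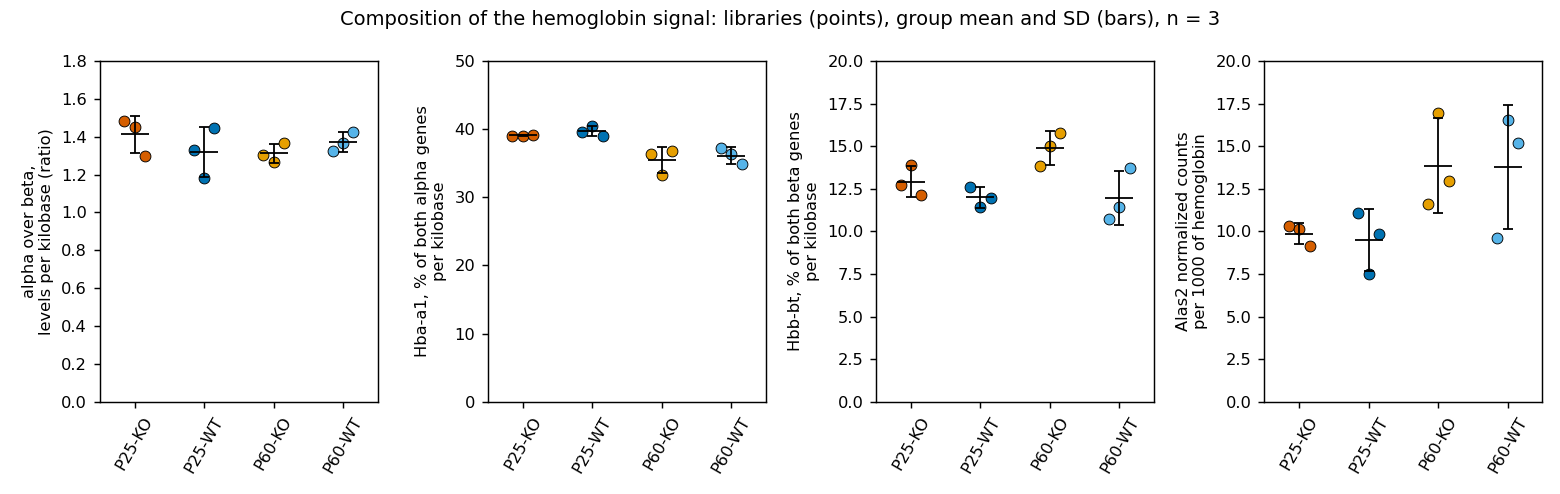
Quantities of each library (points, with group mean and SD, n = 3): the ratio of alpha to beta levels per kilobase, Hba-a1 as a percent of the alpha level, Hbb-bt as a percent of the beta level, and Alas2 normalized counts per 1000 of hemoglobin. The alpha to beta ratio stays between 1.18 and 1.48, and the Hba-a1 share is lower in all P60 libraries than in all P25 libraries.

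The hemoglobin genes followed one another closely over the 12 libraries and within P25, and less closely within P60. Over the 12 libraries the Pearson correlation of log2 values was 0.983 to 0.998 between hemoglobin genes and 0.958 to 0.969 between Alas2 and each of them, most of which reflects the age difference that these points share. After each group's mean was taken off, it was 0.943 to 0.981 between hemoglobin genes and 0.620 to 0.766 with Alas2. Within P25 alone it was 0.975 to 0.997 between hemoglobin genes and 0.910 to 0.948 with Alas2. Within P60 alone it was 0.598 to 0.936 between hemoglobin genes and 0.252 to 0.731 with Alas2. These are descriptions over 12 libraries or the 6 of an age, and P25-KO3 and P25-WT2 lie farthest from their group means.

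Outside the 5 genes, 754 of 17589 genes (4.29%) had a correlation above 0.9 with the log2 of the summed hemoglobin level over the 12 libraries. The 10 most alike were Fkbp9 (0.991), Tssc4 (0.987), Palm (0.983), Gamt, Nras, Agap2, Mindy1, Tuba1a, Stx1a and Slc17a7 (0.978). Of these, 0 were among the 10 most alike by rank correlation and 3 without P25-KO3, so the names depend on the measure and on that library. They were lower at P60 with log2 fold changes of -1.23 (Gamt) to -0.29 (Mindy1), smaller than those of the hemoglobin genes. With group means taken off, 32 genes exceeded 0.9, and the 10 most alike were Rbmxl1 (0.978), 0610010K14Rik (0.9497), Snx7, Commd7, Fkbp9 (0.941), Calhm5, Msrb1, Rasl11a, Nap1l4 and 1810009A15Rik (0.920), of which 1 was kept by rank correlation and 1 without P25-KO3. Commd7, as an example, had 973 normalized counts in P25-KO3 and 1058 in P25-WT2, against 726 to 802 in the other P25 libraries.

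Other erythroid genes gave a mixed picture. Of 24 listed, 9 had a row and were tested between the ages over both genotypes, and 3 were called lower and 1 higher, with a median log2 fold change of 0.09. Without P25-KO3 the calls were 2 in all. Over all 17594 genes tested in this comparison 19.3% were called lower and 3219 genes higher, and the counts of this list and of the lists that come next stand against those shares. Slc4a1, the anion exchanger of the red cell membrane, was at 7.51, 20.6 and 20.4 normalized counts in P25-KO and at 15.5, 18.9 and 20.6 in P25-WT. It was at 5.42, 1.76 and 6.88 in P60-KO and at 1.09, 4.90 and 3.04 in P60-WT, so the ages did not overlap. It reached the minimum mean of 10 only through its P25 values, so its call as lower carries no weight here. Its P25-WT2 value was only 1.05 times the mean of the other P25-WT libraries. Tmcc2, a transmembrane protein also found in brain, and Bpgm, which sets the oxygen affinity of hemoglobin, were lower by -0.29 ± 0.08 and -0.23 ± 0.08 (adjusted p = 0.00904 and 0.0308), and both were also above their group in P25-KO3 and P25-WT2. Sptb, the beta spectrin of the membrane skeleton, was higher by 0.20 ± 0.05 (adjusted p = 0.00828). The summed level of the list was 28598 to 30103 normalized counts at P25 and 28807 to 30738 at P60 and came mostly from genes that neurons also express, such as Add2 and Sptb. Defining markers such as Ahsp, Epb42, Klf1, Gata1, Nfe2, Rhag, Rhd, Kel, Trim10, Tspo2, Car1, Hemgn and Cldn13 were not analysed here.

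Other globins had smaller log2 fold changes than hemoglobin. Of 3 tested, 1 was called lower between the ages. Ngb, the neuronal globin neuroglobin, had 258 to 407 normalized counts at P25 and 232 to 262 at P60, a log2 fold change of -0.35 ± 0.09 (SE, limma adjusted p = 0.00717). Cygb, cytoglobin, had 1871 to 2053 at P25 and 1721 to 1980 at P60 and was not called (log2 fold change -0.04 ± 0.04, adjusted p = 0.475). Hbq1a, a theta globin, had 5.48 to 17.9 at P25 and 8.52 to 19.7 at P60 and was not called. The embryonic genes Hba-x, Hbb-y, Hbb-bh1 and Hbb-bh2 were not analysed here, and neither was Hbq1b.

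Of 15 other heme synthesis genes tested, 8 were lower and 1 was higher at P60, each by less than Alas2, with a median log2 fold change of -0.19 against 0.0037 over all genes. Alas1, the housekeeping partner of Alas2, was not called (-0.01 ± 0.05, limma adjusted p = 0.904). Cpox fell by 0.37 ± 0.04 (adjusted p = 2.2e-05) and Alad by 0.32 ± 0.07 (adjusted p = 0.00215), both enzymes of the pathway. Slc25a38, which serves glycine import into mitochondria, fell by 0.38 ± 0.09 (adjusted p = 0.00493), and Tmem14c by 0.38 ± 0.10 (adjusted p = 0.0111). Slc25a37, the mitochondrial iron importer mitoferrin, was higher by 0.21 ± 0.07 (adjusted p = 0.0234). In WT alone 1 of the 15 was called lower, against 4.99% of all genes, and in KO alone 5 were lower and 1 higher, against 11.3% of all genes lower. These counts rested on single libraries. In KO the calls were 2 in all without P25-KO3 and 3 without P25-KO1, P60-KO1 or P60-KO3, and in WT they were 0 without P25-WT1 or any one P60-WT library, 0 with equal totals and 4 without P25-WT3.

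In the list for heme and hemoglobin clearance, 4 of 10 tested genes were lower and 1 was higher (3 calls in all without P60-WT3), against 19.3% of all genes lower, with a median of -0.19. Slc48a1, a heme transporter, fell by 0.30 ± 0.05 (limma adjusted p = 0.000314), Lrp1, a receptor for heme bound to hemopexin, by 0.27 ± 0.06 (adjusted p = 0.00486), Hmox2, the constitutive heme oxygenase, by 0.22 ± 0.06 (adjusted p = 0.0131) and Blvrb, a biliverdin reductase, by 0.36 ± 0.13 (adjusted p = 0.0424). Flvcr1, a heme exporter, was the one higher (0.22 ± 0.07, adjusted p = 0.0207). Hmox1, the inducible heme oxygenase, was at 110 to 142 normalized counts at P25 and 89.1 to 135 at P60 and was not called. Among 11 iron genes, Ftl1 (ferritin light chain), Steap3, Trf (transferrin) and Aco1 fell by 0.50, 0.45, 0.37 and 0.27, Cp (ceruloplasmin) rose by 0.67, and the median was 0.06.

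Few markers of other blood cells could be tested. Of 6 platelet and megakaryocyte genes tested, 2 were lower at P60, namely Gp1bb (-1.34 ± 0.25, limma adjusted p = 0.000909), at 29.8 to 52.5 normalized counts at P25 and 6.88 to 22.6 at P60, and Itgb3 (-0.37 ± 0.10, adjusted p = 0.00894). Pf4, a defining platelet gene, was at 9.82 to 23.7 at P25 and 9.57 to 16.8 at P60. The summed level of the list was 297 to 359 at P25 and 236 to 285 at P60. limma called 0 of 3 neutrophil genes and 1 had an unadjusted p under 0.05, and Lcn2 was at 601 in P60-KO3 and 492 in P60-WT3 and at 0.978 to 14.1 in the other 10 libraries. The neutrophil list summed to 153 to 224 at P25 and 150.5 to 793 at P60. Of 3 lymphocyte genes, Ighm was higher (0.43 ± 0.10, adjusted p = 0.00539) and Trbc2 lower (-0.65 ± 0.16, adjusted p = 0.00649), and this list summed to 869 to 1265 at P25 and 967 to 1560.0 at P60. The neutrophil markers S100a8, Ngp, Camp and Ltf and the T cell markers Cd3d, Cd3e and Cd3g were not analysed here. The part of any of these cells in the hemoglobin difference was not tested.

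Vessel genes had smaller log2 fold changes than hemoglobin. Of 16 brain endothelial genes 2 were lower at P60 (Slc2a1, the glucose transporter of the blood-brain barrier, by 0.65 and Pltp by 0.41) and 2 higher (Flt1 by 0.38 and Abcb1a by 0.27), not above the 19.3% of all genes called lower, with a median log2 fold change of -0.07. The calls in this list were 2 in all without P60-KO3, without P60-WT3, or without both P25-KO3 and P25-WT2. The summed level of the list was 15751 to 18163 normalized counts at P25 and 12119 to 17384 at P60. Cldn5, a tight junction protein that defines these cells, was not called (0.05 ± 0.18, limma adjusted p = 0.855). Of 13 mural genes 3 were lower (Cspg4 by 0.67, Rgs5 by 0.53 and Kcnj8 by 0.42, median of the list -0.20). Of 9 meningeal genes 4 were lower (Col3a1 by 1.29, Col1a1 by 1.21, Col1a2 by 0.97 and Igf2 by 0.83) and Ptgds was higher. Of 10 choroid plexus genes 6 were higher (F5 by 0.86 and Prlr by 0.82 among them) and 0 lower by limma, and 0 had an unadjusted p under 0.05 in the lower direction. Of 12 forebrain neuron genes 4 were higher and 4 lower, with a median of 0.04. The part of vessel or meningeal tissue in the hemoglobin fall was not tested.

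**Figure D5:**
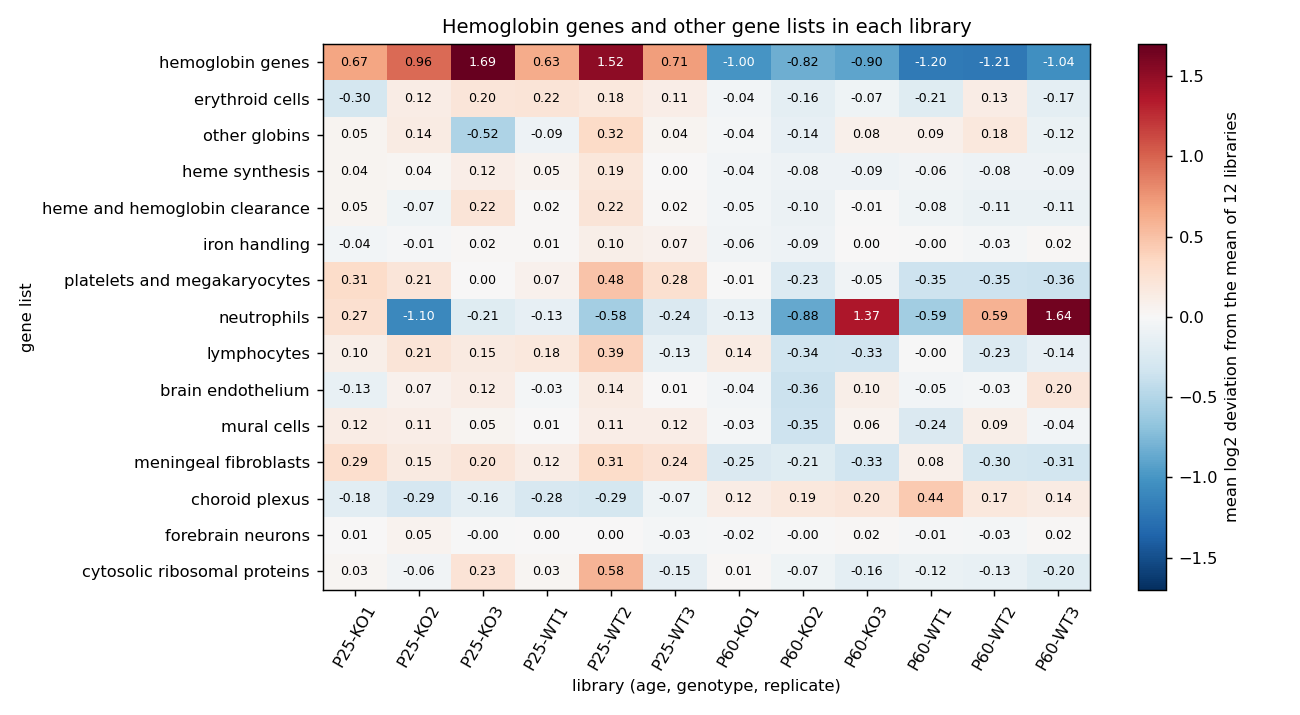
Mean log2 deviation of each gene list (rows) from its mean over the 12 libraries (columns), by color and printed value. The hemoglobin genes range from 1.69 in P25-KO3 to -1.21 in P60-WT2, the neutrophil list from -1.10 in P25-KO2 to 1.64 in P60-WT3, and the brain endothelial list from -0.36 to 0.20. The neutrophil row is a mean over only 4 genes. Among them Lcn2 was at 601 in P60-KO3, 492 in P60-WT3 and 0.978 to 14.1 in the other libraries.

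No gene of the 13 lists was called by limma between KO and WT at either age or in the interaction, where the counts with an unadjusted p under 0.05 were 1 of 120 at P25, 2 of 119 at P60 and 1 of 120 in the interaction. At P60 the 16 endothelial genes all had log2 fold changes below 0 in KO (median -0.15), as did 49.9% of all genes. The 5 hemoglobin and Alas2 values were above 0. The endothelial list was singled out from the 13 after the data had been seen. The part of vessel content in the KO and WT values was not tested. Without P60-KO2, whose endothelial list deviated by -0.36, 10 of the 16 were below 0 (median -0.04), and without P60-WT3, at 0.20, 13 were (median -0.05).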

How the data were processed

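Libraries were grouped by the sample titles. The authors quantified transcripts with Salmon 1.1.0 with correction for GC bias, imported them with tximport and normalized them with DESeq2 (version 1.26.0 and build GRCm38 per the submitters' processing notes) over all 12 libraries. The deposited values are this signal, as normalized counts per gene that are not whole reads, so no count model was run and no counting interval was computed. The annotation the authors used is not given in the sources used here. Symbols and positions came from GENCODE M21 (19252 of 19268 identifiers matched) and promoter windows from RefSeq (GRCm38.p6).

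Comparisons used limma 3.58.1 in R 4.3.3 (lmFit and trended eBayes) after a log2(value + 1) transformation, which understates changes of low genes. Genes with a mean of at least 10 in the fit were tested, and p-values were adjusted by Benjamini-Hochberg over all of them. KO and WT were compared within each age and the ages within each genotype, each on 6 libraries, and the ages over both genotypes and the interaction on all 12. The procedure was tested on simulated data with the same dispersion for every gene and group, unlike the unequal spread of the hemoglobin genes. Within lists, called genes (up to 4 by adjusted p) were named, and otherwise the highest. Other list genes in the text (Add2, Alas1, Blvrb, Cldn5, Cp, Cygb, Hbq1a, Hmox1, Lcn2, Pf4, Ptgds, Slc25a37) were chosen after their values were seen, as was Commd7 among the genes most like hemoglobin. The genes, the lists and the tests were chosen with earlier results of these data known. P-values measure the spread between libraries. Alternatives changed the pseudocount, minimum mean, scaling, variance model, libraries in the fit, replicate block and hemoglobin covariate, or left out libraries.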

Additional observations from a re-analysis of the deposited data

How the results depend on the processing

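The fall of all 5 genes with age kept its direction and its call under every alternative run on them. The summed hemoglobin covariate was run for the counts of genes called and not for the 5 genes, since 4 of them make it up. Over both genotypes the log2 fold changes were -2.30 to -1.38 with limma adjusted p of at most 0.000248, in WT -2.36 to -1.31 (at most 0.0496) and in KO -2.44 to -1.33 (at most 0.0342). Numbers of genes called overall moved more. For KO against WT at P25 (1 gene) they were 0 without an intensity trend, 57 with sample quality weights, 0 with a replicate block and 0 to 8 with 1 library left out. At P60 (1 gene) they were 0 without a trend, 0 with the summed hemoglobin level as a covariate and 1 to 3 with 1 library left out. Between the ages in WT (1521 genes) they were 192 without a trend, 8250 with quality weights, 3442 with all 12 libraries in the fit, 5 with the hemoglobin covariate and 122 to 2403 with 1 library left out (122 without P60-WT3, 231 without P60-WT1, 239 without P25-WT1, 375 without P60-WT2, 2308 without P25-WT3 and 2403 without P25-WT2). In KO (3641 genes) they were 1725 without a trend, 0 with the covariate and 2093 to 3230 with 1 library left out (2093 without P25-KO3, 2181 without P60-KO3, 2323 without P60-KO1 and 2354 without P25-KO1). Over both genotypes (6616 genes) the covariate left 19. Since every P60 hemoglobin sum lay below every P25 sum, this covariate goes along with age. How much of its variation it shares with age was not measured, and their effects cannot be told apart in these fits. The interaction (0 genes) gave 0 to 1. The splits into higher and lower at P60 with equal totals were 991 and 681 in WT, against 644 and 877, and 2108 and 1620 in KO, against 1649 and 1992.

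No KO against WT or interaction call was gained for the 5 genes under the alternatives run on them, which leave out the covariate, but signs changed. With 1 library left out, log2 fold changes at P25 were -0.11 to 0.43 for Hba-a1, -0.073 to 0.44 for Hba-a2, -0.27 to 0.40 for Hbb-bs, -0.10 to 0.48 for Hbb-bt and -0.031 to 0.39 for Alas2, and at P60 -0.050 to 0.35 for Alas2, negative only without P60-WT1. The interaction ranged from -0.31 to 0.23 for Hba-a1, -0.28 to 0.23 for Hba-a2, -0.24 to 0.43 for Hbb-bs and -0.26 to 0.23 for Alas2. It was -0.16 for Hbb-bs with quality weights and 0.11 for Alas2 without both P25-KO3 and P25-WT2, an alternative added after seeing the data. The cause was not tested. Whether replicate numbers pair libraries was not settled. Same-numbered libraries deviated with correlations of -0.07 to 0.17, and those of KO and WT at P60 with 0.06, 0.17 and 0.13. The block moved no other count by over 1.5 times, though it gave 2482 calls between the ages in KO. For the list counts 817 of 897 settings stayed within 1.5 times. Of the 80 that moved 46 were in WT and 25 in KO. The other 9, over both genotypes, gave 2 erythroid calls in place of 4 without P25-KO3 (also without both P25-KO3 and P25-WT2), 2 endothelial calls in place of 4 without P60-KO3, P60-WT3 or that pair, 3 clearance calls in place of 5 without P60-WT3, and 1 neutrophil call in place of 0 without P25-KO1, P25-WT3 or P60-KO2. The tenth highest correlation with hemoglobin over 12 libraries was 0.978, and 0 of the 10 genes were shared with the rank correlation and 3 without P25-KO3. The read depth is unknown, and 3 libraries per group limit the precision.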
